A study of Mus musculus with 3 samples.

Results

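Prdm1, Batf, Irf4, Bach2, Irf8 and Id2 are 6 regulators of the effector state of regulatory T cells (Treg cells), and their H3K36me3 was compared between splenic Treg cells and those of the large intestine (LI). A peak was counted for a gene when its midpoint lay inside the gene body of GENCODE M21. By this rule the 6 genes held 107 of the 120910 peaks, and 11946 genes held at least 1 peak. The study profiled H3K36me3 by chromatin immunoprecipitation sequencing (ChIP-seq) in 3 libraries, namely 1 of splenic Treg cells, 1 of LI Treg cells and 1 of input chromatin from splenic Treg cells, and the input was not analysed here. Both tissues came from adult Foxp3Cre-YFP mice on the C57BL/6 background, with the genotype also labelled Foxp3-YFP, in which a fusion of Cre and YFP is expressed from Foxp3, so the sort for CD3+CD4+Foxp3-YFP+ cells follows the activity of that locus. No floxed allele or treatment was named for these mice. Cells of 7 male and 7 female mice were pooled, so each tissue had 1 library and no ratio has a replicate check.

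H3K36me3 is written by Setd2, which travels with elongating RNA polymerase II, so the mark lies over the bodies of transcribed genes and is usually low at their starts. In Treg cells, Irf4 and Batf act downstream of the T cell receptor and bind DNA together, and Prdm1 encodes Blimp-1, a repressor found in effector Treg cells. Bach2 is a repressor that competes for AP-1 sites and restrains effector differentiation, Irf8 is a further partner of Batf-Jun dimers, and Id2 binds E proteins and keeps them from DNA.

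The mark was higher in LI over Id2 and Prdm1, lower in LI over Bach2, and moderately higher in LI over Irf4. Batf and Irf8 differed less, and their approximate counting intervals, which assume 200 bp per read, held 0. The mean RPKM of a peak is the unit throughout, a coverage corrected for the sequencing depth of its library. Ratios are log2 of LI over spleen with a pseudocount of 0.5 RPKM, minus the log2 ratio of the totals over all peaks (0.046).

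The following 6 stretches are examples of sequence under single peaks. They come from peaks with the highest or lowest ratio of a gene among those with at least 20 RPKM over both libraries. For Id2 the strongest of its peaks was taken (1.73 against 16.2 RPKM). Each is the central 240 bp of the peak, or all 220 bp for peak 4 of Batf, read from the RefSeq assembly GRCm38.p6 on the strand of the gene. Peaks are numbered from the start of the gene, and capitals mark bases in exons of protein-coding transcripts. The windows of Id2 (chr12:25095646-25095885, minus strand), Prdm1 (chr10:44446864-44447103, minus strand) and peak 29 of Bach2 (chr4:32501737-32501976, plus strand) lay over coding exons. Those of peak 35 of Bach2 (chr4:32507597-32507836, plus strand), peak 3 of Batf (chr12:85693475-85693714, plus strand) and peak 4 of Batf (chr12:85694748-85694967, plus strand) were intronic. The Id2 window held 9 CpG dinucleotides, that of Prdm1 held 6, and peak 29 of Bach2 held 11 against 5 in peak 35. Most peaks of Prdm1 (14 of 18) and Bach2 (42 of 49) were intronic, so the coding windows do not stand for their genes. The ratios of peaks 3 and 4 of Batf had approximate counting intervals that held 0 (-1.08 to 0.21 and -0.62 to 2.30).
Id2 peak 1, higher in LI: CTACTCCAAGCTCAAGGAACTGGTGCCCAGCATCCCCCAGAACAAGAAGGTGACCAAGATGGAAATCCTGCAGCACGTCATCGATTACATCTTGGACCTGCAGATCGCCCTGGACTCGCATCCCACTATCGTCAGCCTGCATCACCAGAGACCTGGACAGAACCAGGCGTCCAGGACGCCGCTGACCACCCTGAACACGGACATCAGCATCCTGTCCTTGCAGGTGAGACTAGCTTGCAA
Prdm1 peak 11, higher in LI: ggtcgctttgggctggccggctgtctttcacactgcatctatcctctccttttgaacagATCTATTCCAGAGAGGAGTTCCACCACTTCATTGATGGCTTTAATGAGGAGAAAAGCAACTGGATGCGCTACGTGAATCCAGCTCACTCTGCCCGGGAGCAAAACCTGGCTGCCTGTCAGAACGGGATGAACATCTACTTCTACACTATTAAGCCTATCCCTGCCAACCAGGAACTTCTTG
Bach2 peak 29, higher in spleen: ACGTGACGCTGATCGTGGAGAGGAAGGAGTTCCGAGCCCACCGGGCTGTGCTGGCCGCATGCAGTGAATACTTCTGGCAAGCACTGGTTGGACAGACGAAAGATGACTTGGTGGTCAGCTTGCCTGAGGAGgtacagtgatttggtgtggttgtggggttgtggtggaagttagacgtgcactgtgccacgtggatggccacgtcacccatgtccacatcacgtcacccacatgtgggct
Bach2 peak 35, nearly equal: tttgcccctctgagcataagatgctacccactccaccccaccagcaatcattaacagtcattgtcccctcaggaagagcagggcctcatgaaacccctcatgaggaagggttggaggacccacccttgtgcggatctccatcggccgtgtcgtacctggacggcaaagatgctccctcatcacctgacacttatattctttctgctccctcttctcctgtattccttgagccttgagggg
Batf peak 3, higher in spleen: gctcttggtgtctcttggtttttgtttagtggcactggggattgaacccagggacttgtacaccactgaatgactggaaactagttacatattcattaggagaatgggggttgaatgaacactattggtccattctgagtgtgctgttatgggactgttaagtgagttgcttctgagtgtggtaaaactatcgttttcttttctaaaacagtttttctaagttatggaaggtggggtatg
Batf peak 4, higher in LI: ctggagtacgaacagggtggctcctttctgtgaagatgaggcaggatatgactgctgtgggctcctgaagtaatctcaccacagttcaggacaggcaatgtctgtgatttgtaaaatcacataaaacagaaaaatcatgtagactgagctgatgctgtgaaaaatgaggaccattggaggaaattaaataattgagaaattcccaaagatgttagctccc

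The median of all peaks was 10.4 RPKM in the spleen library and 10.5 RPKM in the LI library, and the depths inferred from the values were 29.6 (spleen) and 38.1 (LI) in units of 1e+06 mapped reads. Of the 10886 genes tested, whose 2 libraries summed to 20 RPKM or more, 3.42% were over 2-fold higher in LI and 2.04% over 2-fold higher in spleen. The middle 50% of these genes lay between -0.20 and 0.24 on the log2 scale. All 10 Treg and T cell markers checked had a peak, with sums of 2014 RPKM in spleen and 1733 RPKM in LI, and Foxp3 had 132.5 and 156.3 RPKM. Of markers of other cells, 5 of 12 B cell genes had a peak (sums of 86.3 and 74.3 RPKM), as did 0 of 6 plasma cell genes, 1 of 12 myeloid and dendritic cell genes (Csf1r, 14.7 and 16.3 RPKM) and 4 of 12 epithelial genes (62.4 and 106.8 RPKM). Ms4a1, Ebf1, Jchain, Mzb1, Lyz2, Spi1, Cdh1, Krt8 and Cdx2 held no peak in either tissue. Of the markers of other cells tested, Epcam had 25.3 RPKM in spleen and 47.2 RPKM in LI (0.84, 0.23 to 1.46). Cd79a had 47.2 and 29.8 RPKM (-0.70, -1.32 to -0.08). The intervals of Cd79b, Fcer2a, Csf1r, Lgals4 and Cldn7 held 0. Derl3, a plasma cell gene, held no midpoint, but peaks reached into its body (mean of 8.32 and 8.85 RPKM). The part of other cells in the ratios was not tested.

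Summed over its peaks, Id2 had 7.28 RPKM in spleen and 42.8 RPKM in LI, a log2 ratio of 2.43 (5.39-fold). Its approximate 95% counting interval ran from 1.37 to 3.49. These intervals take each read as covering 200 bp and cover counting error only. Prdm1 had 93.9 RPKM in spleen and 243.9 RPKM in LI, a log2 ratio of 1.33 (1.06 to 1.59), or 2.51-fold. These were 2 of 6 genes past 2-fold toward LI, against 3.42% of all genes tested. Only 11 of the genes tested had a higher ratio than Id2, and 195 had a higher ratio than Prdm1. Id2 reached the filter of 20 RPKM over both libraries through its LI value.

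Bach2 was 1 of 6 genes past 2-fold toward spleen, against 2.04% of all genes tested. It had 591.3 RPKM in spleen and 205.4 RPKM in LI, a log2 ratio of -1.57 (-1.78 to -1.36), so it was 2.97-fold higher in spleen. Of the genes tested, 42 had a lower ratio. In sorted pools, a mark carried by fewer cells and less of the mark in each cell cannot be told apart, and this holds for each gene.

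The other genes were within 2-fold. Irf4 had 74.2 RPKM in spleen and 101.3 RPKM in LI, 1.32-fold higher in LI, with a log2 ratio of 0.40 whose interval (0.18 to 0.63) lay above 0. Batf had 160.0 and 190.3 RPKM, a ratio of 0.20 with an interval that held 0 (-0.05 to 0.46). Irf8 had 165.4 and 192.7 RPKM, a ratio of 0.17 whose interval also held 0 (-0.04 to 0.39). Irf8 peaks were rich in GC (median 54.8% against 46.5% for all peaks), and after correction for GC content the Irf8 ratio was -0.03. Batf and Irf8 thus lay within the middle 50% of the genes tested, Irf4 lay above it, and Prdm1, Id2 and Bach2 lay farther out.

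**Figure D1:**
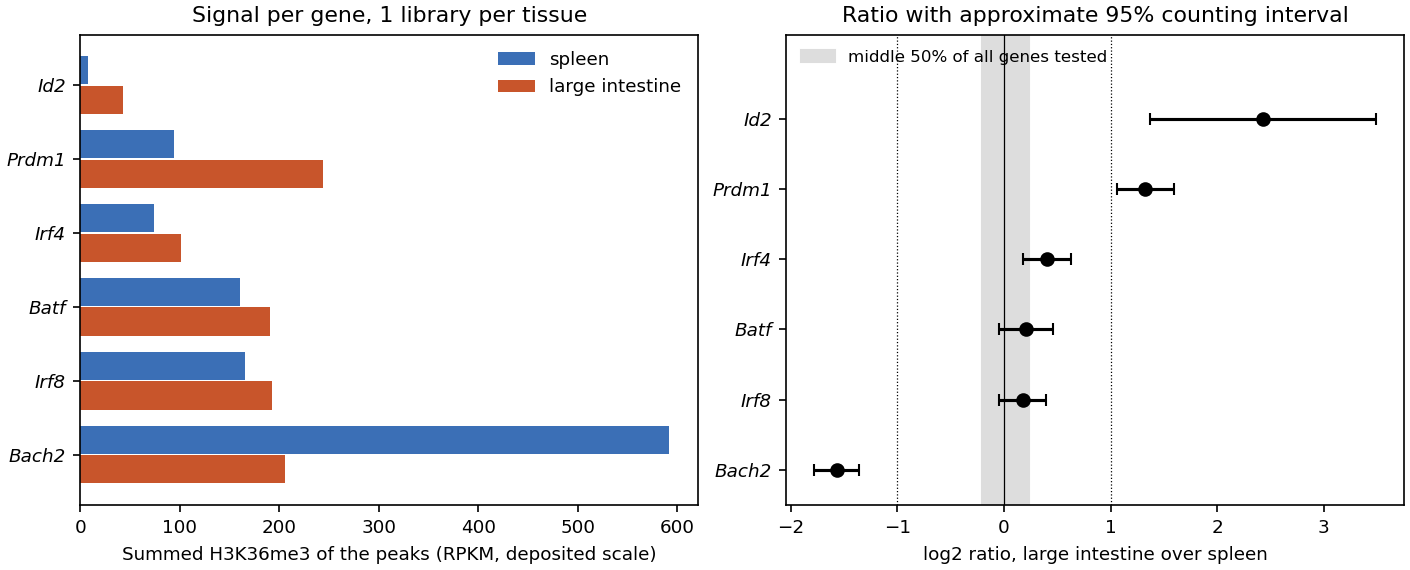
Left, summed H3K36me3 of the peaks of each gene in RPKM as deposited, with 1 bar per tissue and 1 library per bar. Right, log2 ratio of LI over spleen after scaling to the library totals, with approximate 95% counting intervals as bars, dotted lines at 2-fold and the middle 50% of all genes tested in grey. Id2 and Prdm1 lie to the right of 1, Bach2 lies to the left of -1, and Batf and Irf8 have intervals that hold 0.

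Signal per gene length gave another order, since the genes differ in size from 3.34 kb (Id2) to 347.3 kb (Bach2). Here the level is the mean RPKM over the gene body, with bases outside peaks counted as 0. In spleen the levels were 10.6 for Irf8, 9.97 for Irf4, 7.01 for Batf, 1.12 for Id2, 1.04 for Prdm1 and 0.86 for Bach2. Irf8 and Irf4 had overlapping counting intervals in spleen (9.76 to 11.4 and 9.11 to 10.8), as had Id2 (0.46 to 1.78), Prdm1 (0.92 to 1.16) and, with Id2 alone, Bach2 (0.80 to 0.91). In LI the levels were 12.7 for Irf4, 12.0 for Irf8, 7.74 for Batf, 7.07 for Id2, 2.49 for Prdm1 and 0.31 for Bach2. Irf4 and Irf8 again had overlapping intervals (11.8 to 13.5 and 11.2 to 12.8), and so had Batf and Id2 (7.15 to 8.33 and 5.61 to 8.53). Id2 thus lay beside Prdm1 and Bach2 in spleen and beside Batf in LI. The median level of 9456 protein-coding genes tested was 4.95 in spleen and 5.20 in LI, so Irf4, Irf8 and Batf lay above the median in both tissues, Prdm1 and Bach2 below it in both (Prdm1 by its whole annotated body), and Id2 below it in spleen and above it in LI.

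**Figure D2:**
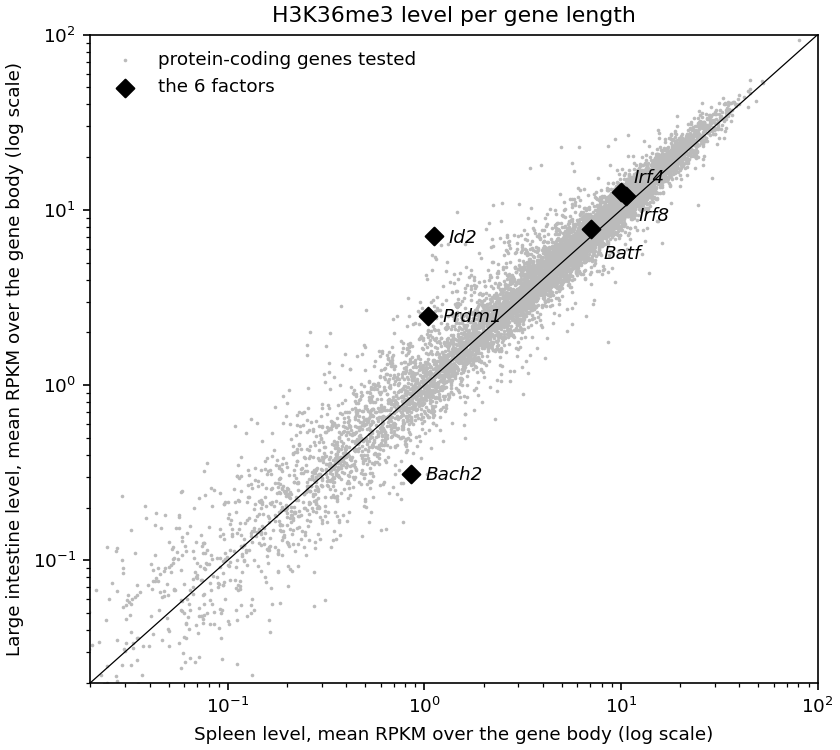
H3K36me3 level of protein-coding genes in spleen and LI as mean RPKM over the gene body, both axes on a log scale, with the diagonal marking equal levels. The 6 genes are diamonds: Id2 (1.12 in spleen, 7.07 in LI) and Prdm1 lie above the diagonal and Bach2 below it. Irf4, Irf8 and Batf lie near it, at levels above the median of the coding genes tested.

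The genes nearest to each factor in both levels were also read from this plane, as the distance in log2 level over these 2 libraries. Those nearest to Prdm1 were Lag3 and Klrg1, both inhibitory receptors of effector lymphocytes, at distances of 0.039 and 0.13. These depend on the annotated body of Prdm1: over its coding transcript, described with its peaks, the nearest genes were Zbtb42 (0.067) and Myo1f (0.11), a comparison added after the values were seen. Nearest to Id2 were Plekhf1 (0.20) and Epas1 (0.28), the latter encoding the hypoxia-inducible factor HIF-2alpha. Nearest to Bach2 was Birc5, which encodes survivin (0.091), followed by Capn3 (0.21). The neighbours of Batf (Psmg2, Sap130), Irf4 (Ctsz, Hacd3) and Irf8 (Ccdc137, Krba1) lay in a dense part of the plane, with distances of at most 0.015.

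Single peaks showed how far each sum was shared along its gene. Peaks of both tissues were merged, so a peak could enter the set through a single tissue. Over all peaks, 48.9% were higher in LI, 9.00% were over 2-fold higher in LI and 9.65% over 2-fold higher in spleen. Of the 107 peaks in the 6 genes, 51 were higher in LI. Ratios of short peaks scattered more: their SD was 0.88 over peaks below 1 kb and 0.39 over longer ones. By midpoint, 88 of the 107 peaks were intronic, 6 lay in coding exons, 8 in UTRs and 5 in exons of noncoding transcripts.

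**Figure D3:**
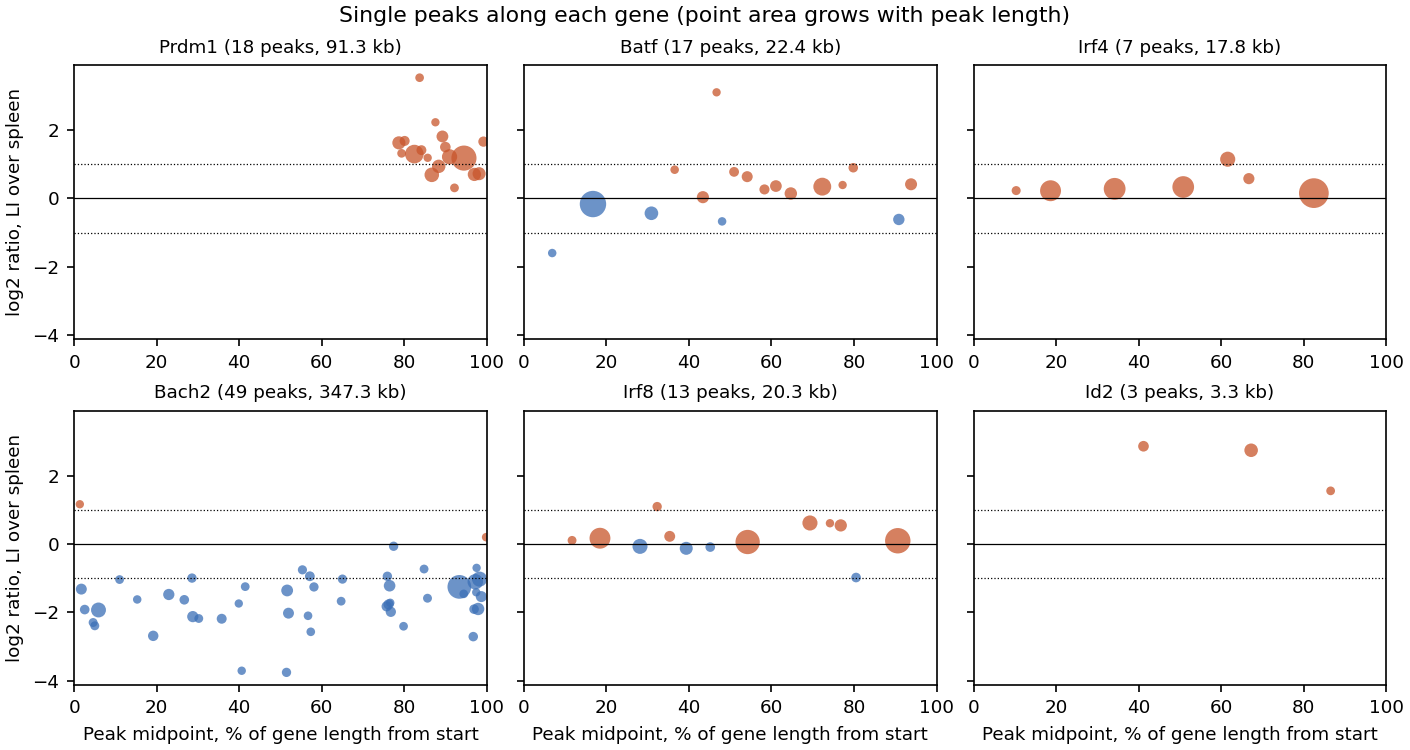
Log2 ratio of each peak (LI over spleen) against the position of its midpoint in percent of the gene length, with point area growing with peak length, red for peaks higher in LI, blue for peaks higher in spleen and dotted lines at 2-fold. All 18 peaks of Prdm1 are red and sit near its end. In Bach2, 47 of 49 peaks are blue and spread along the gene, with the outermost ones red, and Batf has peaks of both colours.

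Prdm1 (ENSMUSG00000038151.13, chr10:44437177-44528501, minus strand) held 18 peaks, and all 18 were higher in LI. Of these, 13 were over 2-fold higher, against 9.00% of all peaks, and the intervals of 12 lay above 0. The share of all peaks with such an interval was not counted. The peaks had 0.93 to 18.5 RPKM in spleen (median 4.39) and 6.04 to 31.5 RPKM in LI (median 12.1). The tissues overlapped in range, since 3 spleen peaks reached the lowest LI peak, but each LI peak was above the median of spleen. The strongest peak (peak 16, chr10:44439503-44440315) lay mostly in coding sequence near the end of the gene and had 18.5 and 31.5 RPKM, a ratio of 0.70. Peak 11, printed above, had 4.62 and 18.1 RPKM (1.81), and the highest ratio of 3.53 belonged to peak 5, a short intronic peak with 0.93 and 16.6 RPKM. The longest peak (3435 bp) had 10.8 RPKM in the spleen and 26.0 RPKM in LI (1.18). By class, the median ratio was 1.31 over 14 intronic peaks, 1.26 over 2 coding exon peaks and 1.19 over 2 UTR peaks.

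The annotated body of Prdm1 is 91.3 kb long, but its first peak began 71.5 kb from the annotated start. That start belongs to a retained-intron transcript, and the coding transcript Prdm1-201 starts 69.8 kb further on. All 18 peaks lay within Prdm1-201, which is 21.6 kb long and had a level of 4.40 in spleen and 10.5 in LI, so by this transcript Prdm1 was below the median coding gene in spleen (4.95) and above it in LI (5.20). Cut into 5 equal parts from its start, Prdm1-201 had levels of 1.05, 2.12, 3.70, 7.57 and 7.57 in spleen. In LI the same parts had 3.54, 6.63, 9.25, 17.9 and 15.3. Spleen rose up to part 4 and was level from there, LI was highest in part 4, and LI was higher than spleen in each part. The log2 ratio of these levels went from 1.71 in the first part to 0.97 in the last, a difference of -0.74 whose interval held 0 (-1.66 to 0.18).

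Id2 (ENSMUSG00000020644.9, chr12:25093799-25097140, minus strand) held 3 peaks, all over 2-fold higher in LI. Peak 1 (chr12:25095537-25095993), 98.0% coding and shown above, had 1.73 RPKM in spleen and 16.2 RPKM in LI, a ratio of 2.86. Peak 2 (chr12:25094465-25095321) had 1.49 and 13.2 RPKM (2.74), and peak 3 (chr12:25094129-25094369), in the UTR, had 4.06 and 13.3 RPKM (1.56). Among these 3 peaks, which are not replicates, the highest spleen value was 4.06 RPKM and the lowest LI value 13.2 RPKM. How many other genes had ranges apart was not counted. At 200 bp per read, the spleen sum rests on about 9.02 reads and the LI sum on about 83.6, so the size of the ratio is loosely set. The interval of peak 3 alone held 0 (-0.12 to 3.23). A further peak whose midpoint lay 213 bp past the gene end had 5.67 and 13.8 RPKM (1.16) and was not counted in the sum.

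Bach2 (ENSMUSG00000040270.16, chr4:32238804-32586108, plus strand) held 49 peaks, and 47 were higher in spleen. Of these, 40 were over 2-fold higher, against 9.65% of all peaks, and the intervals of 29 lay below 0. The share of all peaks with an interval below 0 was not counted. The peaks had 3.24 to 22.1 RPKM in spleen (median 11.8) and 0.51 to 9.97 RPKM in LI (median 3.63). No LI peak reached the median of spleen, and 48 of the spleen peaks were at or above the median of LI. Peak 29 (chr4:32501657-32502055) had 22.1 and 6.09 RPKM, a ratio of -1.82, and peak 39 (chr4:32561536-32564575), the longest at 3040 bp, had 21.9 and 9.20 RPKM (-1.25). Both lay over coding exons, and peak 39 also lay inside the antisense gene Bach2os, whose reads cannot be separated here. Peak 35, between them and printed above for contrast, had 10.1 and 9.97 RPKM (-0.06). The lowest ratio was -3.75 at peak 19 (12.7 and 0.51 RPKM). The exceptions toward LI were the outermost peaks: peak 1 (200 bp) had 3.24 and 8.15 RPKM (1.16), and peak 49 (221 bp) had 7.05 and 8.46 RPKM (0.20).

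The lower signal in LI was seen in each of 5 equal parts of Bach2, although its outermost peaks were higher in LI. The peaks of Bach2 covered 6.10% of its body. The coding transcript Bach2-207 starts inside the gene, 178.6 kb from the first start. The 18 peaks before that start summed to 201.8 RPKM in spleen and 59.3 RPKM in LI, a ratio of -1.80 (-2.21 to -1.40). The 31 peaks from it on summed to 389.5 and 146.2 RPKM, a ratio of -1.46 (-1.70 to -1.21), and the interval of the difference held 0 (0.35, -0.12 to 0.82). In 5 equal parts of the gene the spleen levels were 0.56, 0.45, 0.57, 0.65 and 2.06 and the LI levels 0.16, 0.13, 0.17, 0.24 and 0.87. The last part was the highest in both tissues, and the ratio there (-1.29) was nearer to 0 than in the first part (-1.87), with a difference of 0.58 (0.02 to 1.14). Leaving out the 5 peaks that also lay in Bach2os or Bach2it1 gave -1.54 over 44 peaks, an alternative added after the values were seen.

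**Figure D4:**
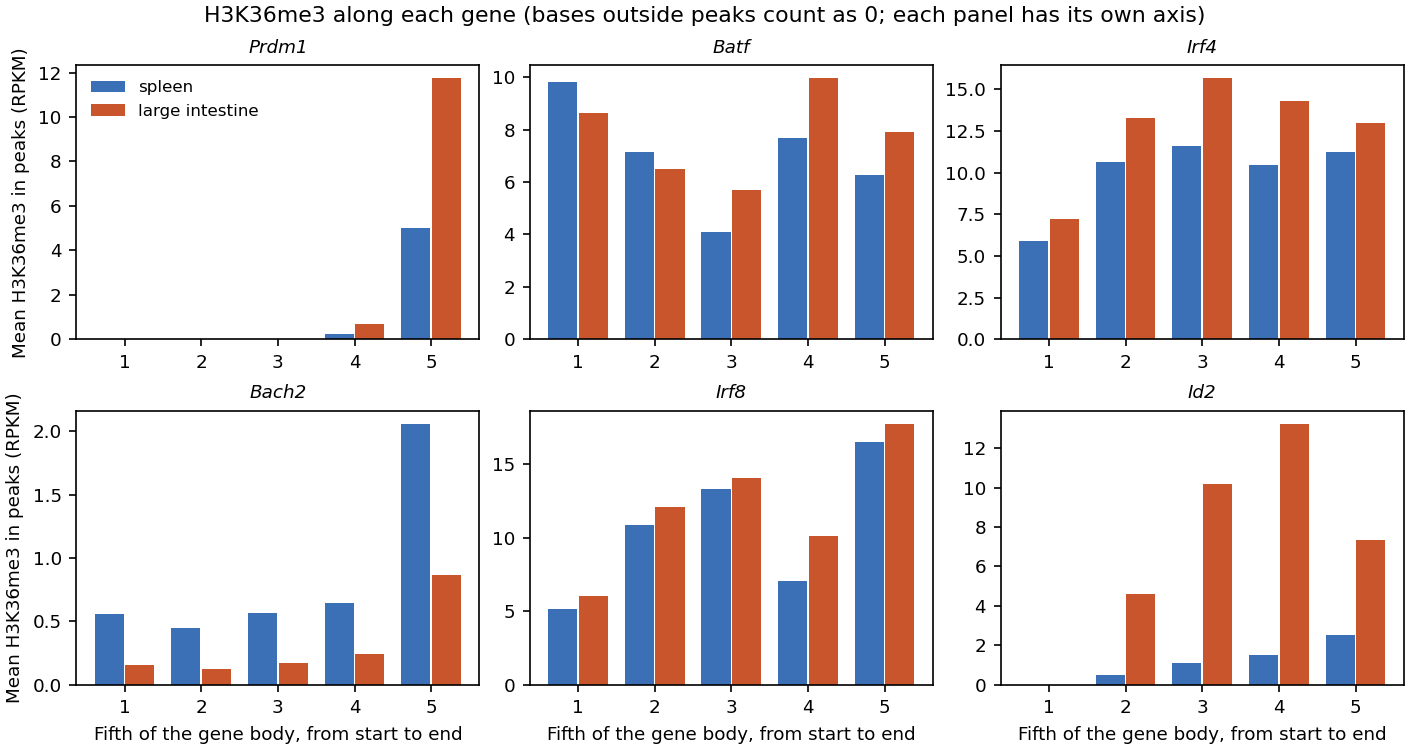
Mean H3K36me3 in RPKM over each of 5 equal parts of the gene body, from start to end, in spleen (blue) and LI (red), with bases outside peaks counted as 0 and an axis of its own for each gene. Prdm1 has signal in parts 4 and 5 only, and Bach2 is higher in spleen in each part. In Batf spleen is the higher tissue in parts 1 and 2 and LI in parts 3 to 5, within counting error in each part.

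Batf (ENSMUSG00000034266.6, chr12:85686669-85709087, plus strand) held 17 intronic peaks, 12 higher in LI and 5 higher in spleen, and the intervals of 16 held 0. The exception was the 200-bp peak 6, with 0.84 RPKM in spleen and 11.4 RPKM in LI (3.10). The first 3 peaks were higher in spleen: peak 1 had 13.4 and 4.24 RPKM (-1.60, -3.25 to 0.06), peak 2, the longest at 3815 bp, had 15.6 and 14.3 RPKM (-0.16), and peak 3 had 13.9 and 10.5 RPKM (-0.43). Peak 4 had 7.21 and 13.8 RPKM (0.84), and the strongest, peak 12, had 16.0 and 18.3 RPKM (0.15). In 5 equal parts the spleen levels were 9.83, 7.15, 4.11, 7.67 and 6.28 and the LI levels 8.65, 6.48, 5.71, 9.95 and 7.91. The order of the tissues thus changed between part 2 and part 3, but the ratio of each part had an interval that held 0. Peak 2 lay across parts 1 and 2. The difference in ratio between the last and the first part had an interval that only just held 0 (0.52, -0.0024 to 1.04). A 2557-bp peak that spanned the gene end, with its midpoint 466 bp past it, had 19.5 and 27.1 RPKM (0.42) and a 223-bp peak beyond it had 5.65 and 22.0 RPKM (1.83), and with both of them the Batf ratio was 0.32.

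Irf4 (ENSMUSG00000021356.10, chr13:30749226-30766976, plus strand) held 7 peaks that covered 79.8% of its 17.8 kb, and all 7 were higher in LI. The intervals of 5 of them held 0. Peak 5 had the highest ratio, with 5.77 (spleen) and 13.8 RPKM (LI), or 1.15, and was the only peak of the gene past 2-fold. The strongest, peak 4, had 14.7 and 19.3 RPKM (0.33), and the longest, the 4892-bp peak 7 that ended in the UTR, had 13.9 and 16.0 RPKM (0.16). Levels in the 5 parts were 5.91, 10.6, 11.6, 10.5 and 11.2 in spleen and 7.19, 13.3, 15.7, 14.3 and 13.0 in LI. The first part was the lowest in both tissues, and LI was higher in every part by a ratio of 0.16 to 0.41. The intervals of parts 1, 2 and 5 held 0.

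Irf8 (ENSMUSG00000041515.10, chr8:120736358-120756694, plus strand) held 13 peaks, 9 higher in LI and 4 higher in spleen. Peak 4 had 7.63 RPKM (spleen) and 17.4 RPKM (LI), a ratio of 1.10, peak 12 had 12.8 and 6.45 RPKM (-0.98), and the strongest in spleen, peak 6, had 20.7 and 19.6 RPKM (-0.13). The interval of peak 9 lay above 0, with 12.1 and 19.4 RPKM (0.62, 0.09 to 1.14), and the other 12 intervals held 0. After correction for GC content, 5 of the 13 peaks were higher in LI. All these peaks also lie in Gm20388, an annotated gene model that spans the region.

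The nearest coding genes on each side were compared in the same way. Beside Prdm1, the autophagy gene Atg5, 72.9 kb away, had a ratio of 0.14 (-0.15 to 0.43) and Prep, 538.7 kb away, 0.05 (-0.08 to 0.19). Beside Id2, Kidins220, 30.6 kb away, had 0.06 (-0.07 to 0.18). Beside Bach2, Gja10, 10.9 kb away, held no peak, and Map3k7, 215.3 kb away, had 0.08 (-0.09 to 0.25). The intervals of these 4 genes with peaks held 0, whereas Rnf144a, 1204 kb from Id2, had -0.85 (-1.45 to -0.25). Beside Batf the neighbour had the larger ratio: Jdp2, an AP-1 family repressor 46.8 kb away, had 71.0 RPKM in spleen and 186.7 RPKM in LI, a ratio of 1.34 (1.01 to 1.67). Flvcr2 on the other side had 0.19 (-0.39 to 0.78). Beside Irf4, the phosphatase gene Dusp22 had 0.70 (0.16 to 1.24) and Exoc2 had 0.27 (0.15 to 0.39), and beside Irf8, Cox4i1 had 0.05 (-0.16 to 0.25).

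Lists of related genes placed each factor among its relatives, described by counts and medians beside the median of 0.00 over all genes tested. In the IRF family, 6 of 8 genes tested were higher in LI and 0 were past 2-fold. The median was 0.14 (0.02 after correction for GC content). Irf3 (0.50, 0.16 to 0.85) and Irf5 (0.46, 0.15 to 0.78) had higher ratios than Irf4 (0.40, 0.18 to 0.63), with overlapping intervals. Irf3 and Irf5 act in antiviral and innate signalling. Irf9 was lowest (-0.26, -0.58 to 0.06). In the BATF and AP-1 list, 8 of 9 were higher in LI, with a median of 0.74 (0.40 after correction for GC content), and 3 were past 2-fold. These were Fosl2 (21.4 RPKM in spleen and 81.6 RPKM in LI, 1.86), Jdp2 and Fosb (15.3 and 33.7 RPKM, 1.07). The spleen value of Fosb alone lay below the filter of 20 RPKM. Batf, at 0.20, was below the median of its own list, and its relatives Batf2 and Batf3 held no peak.

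Among Bach and small Maf genes, 3 of 6 were higher in each tissue. Bach1, the closest relative of Bach2, had 97.9 RPKM in spleen and 142.1 RPKM in LI, a ratio of 0.49 (0.17 to 0.81), in the opposite direction to Bach2. Maff (11.9 RPKM in spleen and 30.3 RPKM in LI, 1.27) was past 2-fold toward LI. The spleen value of Maff alone lay below the filter of 20 RPKM. Among Id and E protein genes, 4 of 7 were tested, and Id2 and Id3 had ratios of opposite sign. Id3, which like Id2 restrains E proteins, had 22.7 RPKM in spleen and 7.46 RPKM in LI, a ratio of -1.59 (-2.69 to -0.49). Id3 reached the filter mainly through its spleen value. Of their targets, Tcf12 (HEB) had 199.8 and 157.7 RPKM (-0.39, -0.65 to -0.12) and Tcf3 (E2A) had 61.4 and 73.1 RPKM (0.20, -0.05 to 0.46), while Id1, Id4 and Tcf4 held no peak.

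Genes of the effector and resting states stood on opposite sides. Both lists were chosen with earlier results of these data known, so their counts describe the lists and test nothing. Of the effector Treg genes, 18 of the 21 were tested, and these 18 were higher in LI, 16 of them with an interval above 0. The share of all genes tested with an interval on either side of 0 was not counted, for this list or the next. Of the 18, 9 were past 2-fold, against 3.42% of all genes tested, and the median was 1.07. Below the filter, Cxcr3 had 11.8 RPKM in spleen and 6.94 RPKM in LI and Gzmb had 4.27 and 12.2 RPKM, and Pparg held no peak. The 9 genes included the inhibitory receptor gene Havcr2 (27.5 RPKM in spleen and 155.2 RPKM in LI, 2.43), the cytokine gene Il10 (3.68 and 18.4 RPKM, 2.13) and Nfil3, a transcription factor (28.9 and 92.1 RPKM, 1.61). Il10 held a single peak and reached the filter, which sums both libraries, mainly through its LI value. Ebi3 (8.50 and 17.5 RPKM) and Ccr8 (10.7 and 19.6 RPKM) also reached it with the larger part from LI. The lowest ratio among the 18 genes tested was that of Gata3 (0.23). Of the resting T cell genes, 11 of 11 had higher values in spleen, and 8 had an interval below 0. Past 2-fold were 5, against 2.04% of all genes tested, and the median was -0.95. The intervals of Foxo1 (-0.11), Il7r (-0.13) and Klf2 (-0.36) held 0. The 5 genes included S1pr1, a receptor that guides exit from lymphoid organs (32.0 and 9.36 RPKM, -1.76). S1pr1 reached the filter mainly through its spleen value. Also among the 5 were the survival gene Bcl2 (405.9 and 136.7 RPKM, -1.61) and the chemokine receptor gene Ccr7 (61.5 and 24.8 RPKM, -1.34). Prdm1 and Id2 thus lay above the effector median and Bach2 below the resting median, while Irf4, with a ratio of 0.40, and Batf lay below the effector median.

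**Figure D5:**
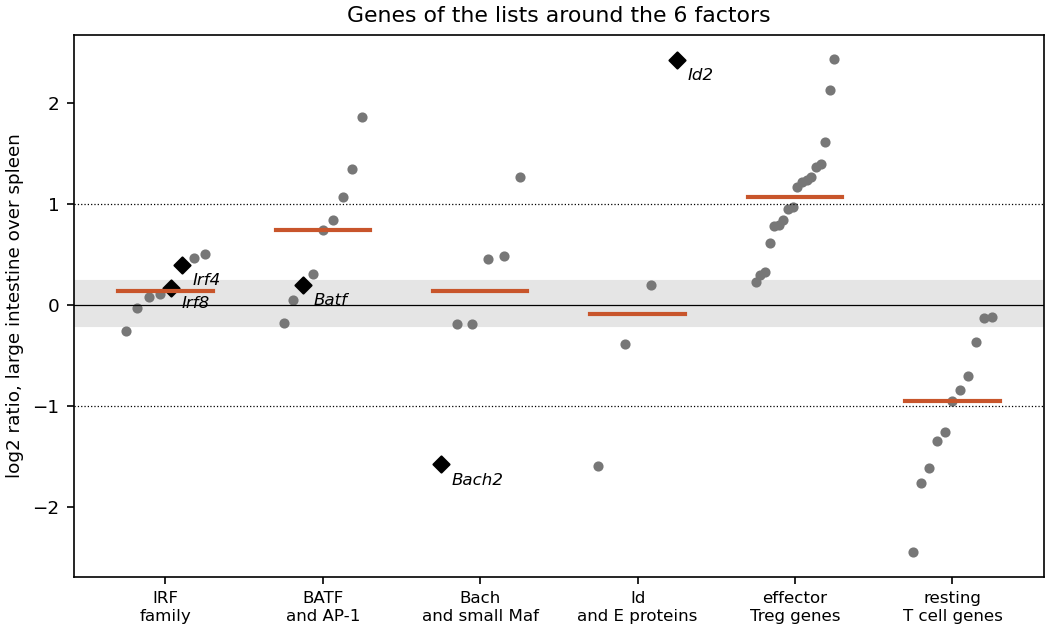
Log2 ratio (LI over spleen) of each gene tested in 6 lists, with the list medians as red lines, the members of the group in the family lists as labelled diamonds, 2-fold as dotted lines and the middle 50% of all genes tested in grey. The effector genes lie above 0 with a median of 1.07, the resting genes lie below 0 with a median of -0.95, and Id2 and Bach2 stand at the edges of their families.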

How the data were processed

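The deposited table gave H3K36me3 in RPKM, that is, the authors' RPKM-scaled coverage tracks (bamCoverage) averaged over each merged peak with multiBigwigSummary. Although the table bears the name of raw counts, it held fractional values. The submitters' processing notes and the methods name FastQC, Bowtie2, mm10, MACS2 at a p-value of 0.01 against the splenic input, and bedtools for merging the peaks of both tissues. Which tissue a peak was called in is not given in the sources used here, so peaks were used as 1 set.

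The product of value and peak length came in steps, 1 for each library (1.69 RPKM in spleen, 1.31 RPKM in LI). For 20-bp bins the products of the 556 and 545 peaks that could be tested were whole in 100% of cases, from which the mapped reads were inferred. Reads per peak were not recovered, so no count test was run, and no p-value is given because there was 1 library per tissue. The approximate 95% counting intervals assumed 200 bp per read and independent reads. Reads were 75 nt long, and the length that each read covered in the tracks is not given in the sources used here. Because the planned tests assumed another unit, filters were applied to RPKM.

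Peaks were assigned by midpoint to GENCODE M21 genes and summed per gene. Each column was scaled to its total. Ratios used a pseudocount of 0.5 RPKM, which understates changes of low genes, and genes needed 20 RPKM over both libraries. Ratios over parts of a gene had no pseudocount. The GC correction subtracted the median ratio in 20 bins of peak GC content. The strongest peak and those with the highest and lowest ratio among peaks of at least 20 RPKM over both libraries were named for each gene, and peaks described beside them were chosen after their values were seen. Sequences came from RefSeq GRCm38.p6, and 0 of 21 chromosomes held a peak past their end. Python 3.11.15, numpy 2.4.6 and pandas 2.3.3 were used, and the interval script was tested on simulated data. The 6 genes and the lists were chosen with earlier results of these data known. Alternatives were other scalings, pseudocounts, filters, peak assignments, peak lengths and a GC correction. Some genes of the lists are counted but not reported here by name.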

Additional observations from a re-analysis of the deposited data

How the results depend on the processing

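No paired analysis was possible because each tissue had 1 library. Of 54 alternative gene ratios, 52 stayed in direction and within the counting interval. With peaks of at least 1 kb, Bach2 had -1.32 over 4 peaks (Id2 had none of that length), and with the GC correction Irf8 had -0.029. Not all of the 54 could move far. The other scalings shifted every ratio by a constant of 0.005 or 0.046. Counting peaks up to 5 kb downstream left Prdm1, Irf4, Bach2 and Irf8 unchanged. The 54 also include the Bach2 alternative that was added after the values were seen. Ranges over the alternatives were 1.12 to 1.48 for Prdm1, 0.02 to 0.32 for Batf, 0.26 to 0.45 for Irf4, -1.65 to -1.32 for Bach2, -0.03 to 0.22 for Irf8 and 1.91 to 2.67 for Id2. The median peak of Irf8 went from 0.11 to -0.12 with the GC correction, and that of Id2 was 1.44 with a pseudocount of 5. Genes past 2-fold numbered 372 toward LI and 222 toward spleen. They numbered 623 and 459 without a filter, 70 and 39 under a filter of 200 RPKM (4323 genes), 252 and 145 with a pseudocount of 5, and 271 and 240 with the GC correction. The change of the gene set follows from the filters, and a larger pseudocount draws ratios toward equality by its arithmetic. The cause of the other changes was not tested. The values of Id2 in spleen rest on few reads, and peaks below 1 kb scatter most. The biological spread between mice cannot be estimated from 1 pooled library per tissue.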
